A study of Mus musculus with 22 samples.

Results

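The genes described here are 9 axon guidance genes of the mouse, the Slit ligands Slit1, Slit2 and Slit3, their receptors Robo1 and Robo2, the netrin receptors Dcc, Unc5c and Unc5d, and the netrin-G gene Ntng1. They were chosen by name, are 9 of 21718 protein-coding genes with a measured 5mC level, and were followed at their GENCODE release M 21 spans with flanks of 500 kb on either side. The levels of 5-hydroxymethylcytosine (5hmC) and 5-methylcytosine (5mC) came from the cortex, olfactory bulb and cerebellum of C57BL/6 mice 8 weeks old, which were female according to the methods of the study. All groups shared this strain, age and sex, none carried an allele or received an agent, the cortex was taken without the hippocampus, and the replicates came from independent mice. TAB-seq, which leaves only 5hmC to be read as cytosine, was done on 9 libraries with 3 per tissue, and oxBS-seq, which leaves only 5mC, on 7 libraries, 3 of them of cortex and 2 each of the other tissues. Each value is a level, the fraction of cytosines read as modified, in bins of 1 Mb for 5hmC and of 100 kb for 5mC, so that no CpG, exon or promoter was resolved.

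Slit proteins are secreted and bind Robo receptors on growth cones, mostly to repel axons and migrating neurons, while netrins attract axons through Dcc and repel them through receptors of the Unc5 family. In the brain these proteins guide commissural and thalamic axons, the axons of the olfactory system, the neuroblasts that migrate into the olfactory bulb and the granule cells of the cerebellum. Ntng1 encodes netrin-G1, a netrin relative held on the membrane that binds the adhesion protein encoded by Lrrc4c rather than Dcc or Unc5 receptors. In neurons, 5hmC is made by oxidation of 5mC and is abundant in the bodies of genes that are active.

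Stretches of the genome at 3 of the genes show what kind of sequence lay in these bins. They are given 5′ to 3′ on the strand of the gene, from GRCm38 (the build called mm10), with every CpG in capitals. The first pair are the 250 bases just upstream of the annotated starts of Slit3 (chr11:35120974-35121223, plus strand) and Unc5c (chr3:141464966-141465215, plus strand), and the other 2 are 200 bases of intron near the centre of the bin with the largest difference in 5mC between tissues in Robo2 (chr16:74352878-74353077, minus strand) and in Unc5c (chr3:141649901-141650100, plus strand).
Slit3 upstream: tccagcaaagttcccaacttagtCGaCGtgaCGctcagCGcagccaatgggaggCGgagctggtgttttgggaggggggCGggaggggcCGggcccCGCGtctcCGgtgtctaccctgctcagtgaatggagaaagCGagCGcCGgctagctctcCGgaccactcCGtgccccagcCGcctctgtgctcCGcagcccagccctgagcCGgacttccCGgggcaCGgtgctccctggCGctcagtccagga
Unc5c upstream: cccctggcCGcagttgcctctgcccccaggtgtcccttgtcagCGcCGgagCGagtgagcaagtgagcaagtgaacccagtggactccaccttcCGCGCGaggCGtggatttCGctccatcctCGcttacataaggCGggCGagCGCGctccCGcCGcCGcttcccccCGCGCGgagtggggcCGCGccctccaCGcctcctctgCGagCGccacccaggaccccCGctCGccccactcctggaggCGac
Robo2 intron: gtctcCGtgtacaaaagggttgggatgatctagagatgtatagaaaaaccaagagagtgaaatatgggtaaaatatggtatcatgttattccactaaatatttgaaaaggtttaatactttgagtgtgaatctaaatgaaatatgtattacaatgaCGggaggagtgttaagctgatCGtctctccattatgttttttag
Unc5c intron: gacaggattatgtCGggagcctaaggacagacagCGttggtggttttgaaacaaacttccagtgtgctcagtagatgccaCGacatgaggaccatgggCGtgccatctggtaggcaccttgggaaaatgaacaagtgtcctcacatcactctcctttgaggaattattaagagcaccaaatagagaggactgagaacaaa
The upstream stretch held 21 CpGs for Slit3 and 28 for Unc5c, against 3 and 4 in the introns of Robo2 and Unc5c. The median over 32851 promoter windows of the RefSeq table was 6 CpGs in 250 upstream bases. The bins of 100 kb that contain the stretches held between 568 and 1204 CpGs. The levels below are thus averages over far more sequence, and none of these stretches was measured by itself.

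All 9 genes were longer than 100 kb. Dcc was the longest (1097 kb, chr18:71253634-72351069 in mm10, minus strand), followed by Robo1 (738 kb, chr16:72308306-73046095, plus), Slit3 (587 kb, chr11:35121224-35708507, plus), Unc5d (573 kb, chr8:28646717-29219636, minus) and Robo2 (520.0 kb, chr16:73891839-74411825, minus). Unc5c (370 kb, chr3:141465216-141834924, plus) and Ntng1 (364 kb, chr3:109780040-110144011, minus) lie far apart on the same chromosome, and Slit2 (325 kb, chr5:47983138-48307733, plus) and Slit1 (143 kb, chr19:41600257-41743665, minus) were the shortest. They overlapped 58 bins of 100 kb, of which 40 lay wholly inside a gene, and 14 bins of 1 Mb, of which 0 did. The 5hmC level of a gene is thus that of a wider region and also covers sequence outside the gene. For Slit1, a gene of 143 kb, it is the level of 1 bin of 1 Mb. Robo1 and Robo2 are neighbours and share 1 of these 1 Mb bins (chr16:73000001-74000000), so their 5hmC levels are not independent of each other.

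Averaged over the levels of all protein-coding genes, 5hmC was between 0.154 and 0.172 in the cortex libraries, 0.138 and 0.145 in the olfactory bulb and 0.102 and 0.106 in the cerebellum. For 5mC this average was between 0.606 and 0.635, 0.650 and 0.657, and 0.657 and 0.673. Cortex oxBS-seq replicate 3 was the lowest of the 7 libraries and lay below both other cortex libraries in 9 of the 9 genes. The depth behind a level is unknown, so its error is the SD between libraries, which the methods of the study call technical replicates although they name independent mice. The p-values measure only spread between libraries, which limma shared over all genes or bins. This shared spread had infinite degrees of freedom for 5hmC, 66.4 for 5mC of genes, 905 for bins and 5.3 relative to flanks. The libraries themselves gave 6 in 5hmC and 4 in 5mC. Very small p-values thus do not rest on the libraries of 1 gene or bin alone. As a check of the labels, 5mC over marker genes was lowest in the cortex for 6 of 9 markers of cortical excitatory neurons, in the olfactory bulb for 6 of 10 markers of its neurons, and in the cerebellum for 5 of 10 markers of granule and Purkinje neurons, against 76.9%, 8.67% and 14.4% of all genes. The share of cortical markers, 66.7%, was below that of all genes, so these markers gave no check of the cortex label. Of the markers of granule and Purkinje neurons, 5 of 10 were lowest in cortex. Of the oligodendrocyte and the astrocyte markers, 4 of 5 each were lowest in cortex. The level in a whole tissue averages over its cells, so a different mix of cells and a different level within cells cannot be told apart.

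In the cerebellum, all 9 genes had less 5hmC than in the cortex, where 98.4% of 21755 genes were lower, and 8 of 9 had less than in the olfactory bulb, where 88% were lower. The differences from cortex were largest for Unc5d, Slit2, Robo2 and Dcc, while Slit3, a Slit ligand, and Unc5c, a repulsive netrin receptor, had levels of 0.16, above those of the other 7 in that tissue. Differences are given on the scale log2(level/(1 − level)), on which the error of every gene was the same (SE 0.07) because the limma fit shared 1 variance over all genes.

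Of the ligands, Slit2 had 5hmC levels of 0.163, 0.172 and 0.157 in the cortex libraries, 0.123, 0.129 and 0.125 in the olfactory bulb and 0.0643, 0.0681 and 0.0676 in the cerebellum. The 3 tissues did not overlap, and the cerebellum was lower than the cortex by -1.46 and than the olfactory bulb by -1.01 (adjusted p = 1.9e-94 and 1.2e-45). Slit1 went from 0.191 ± 0.0133 (SD, n = 3) in cortex and 0.173 ± 0.00371 (n = 3) in olfactory bulb to 0.112 ± 0.00229 (n = 3) in cerebellum, a difference from cortex of -0.90. Slit3 had the highest level of the 9 genes in cortex, 0.214, 0.218 and 0.202, then 0.195 ± 0.0047 (SD, n = 3) in olfactory bulb and 0.166, 0.156 and 0.167 in cerebellum. Again the tissues did not overlap, but the difference of the cerebellum from the cortex was only -0.46 (adjusted p = 8.1e-11) and that from the olfactory bulb -0.31 (adjusted p = 1.1e-05).

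Among the Slit receptors, Robo2 had 5hmC levels of 0.195, 0.210 and 0.187 in cortex, 0.224, 0.230 and 0.222 in olfactory bulb and 0.0828, 0.0841 and 0.0852 in cerebellum. Every olfactory bulb library was above every cortex library, and the cerebellum lay below both, by -1.42 against cortex and by -1.67 against olfactory bulb (adjusted p = 2.2e-89 and 1.7e-121). The level of Robo2 in the olfactory bulb was above that of 97.3% of the genes of at least 100 kb. Robo1 fell from 0.193 ± 0.0132 (SD, n = 3) in cortex and 0.195 ± 0.00388 (n = 3) in olfactory bulb to 0.0929 ± 0.0013 (n = 3) in cerebellum, by -1.22 and -1.25.

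Of the netrin receptors, Dcc, which mediates attraction, had 0.171, 0.190 and 0.163 in cortex, 0.152, 0.161 and 0.153 in olfactory bulb and 0.0753, 0.0691 and 0.0752 in cerebellum, a difference of -1.42 between cerebellum and cortex. Unc5d had the lowest level of the 9 genes in cerebellum, 0.0636, 0.0644 and 0.0682, against 0.165, 0.174 and 0.158 in cortex (difference -1.50, adjusted p = 6.6e-100). Its relative Unc5c had 0.190, 0.214 and 0.185 in cortex, 0.160, 0.167 and 0.156 in olfactory bulb and 0.163, 0.153 and 0.165 in cerebellum. For Unc5c the libraries of cerebellum and olfactory bulb overlapped, with a difference of -0.01 (adjusted p = 0.90), and both tissues lay below cortex by -0.35 (adjusted p = 5.1e-07 for cerebellum and 3.0e-06 for olfactory bulb). Ntng1 was at 0.163 ± 0.00879 (SD, n = 3) in cortex and 0.165 ± 0.00376 (n = 3) in olfactory bulb, and at 0.0858 ± 0.00108 (n = 3) in cerebellum, a difference from cortex of -1.05.

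**Figure D1:**
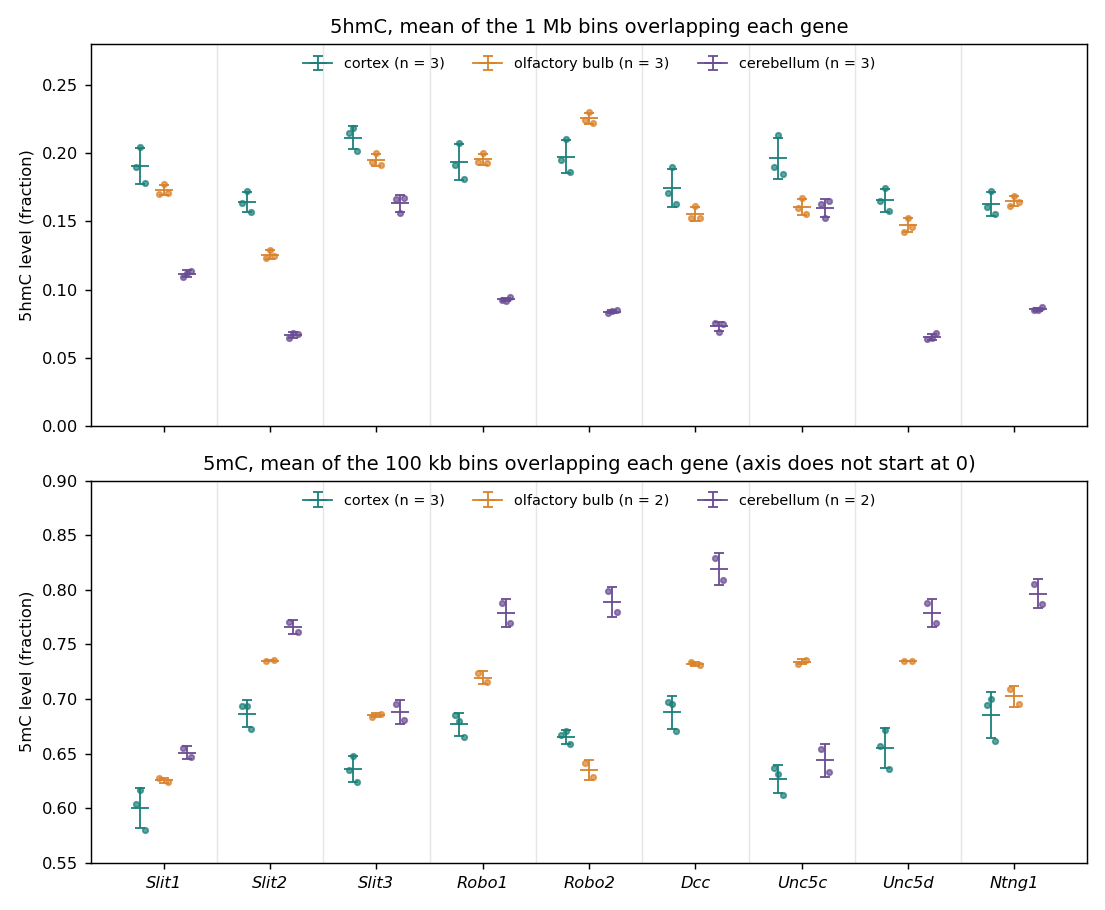
Levels of 5hmC (top, y axis from 0) and 5mC (bottom, y axis from 0.55) as fractions in each library, for 9 genes on the x axis and 3 tissues by colour, with points for libraries and bars for the mean ± SD. Robo2 has its highest 5hmC and lowest 5mC in the olfactory bulb, though the latter did not pass against cortex, and Unc5c stays near the cortical 5mC level in the cerebellum while most other genes rise.

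These counts stood against a shift of the whole genome. Between cerebellum and cortex, 98.4% of all genes were lower and 0.124% higher, with a median difference of -0.76 over all genes and -1.22 over the 9. Between cerebellum and olfactory bulb, 88% were lower and 1.02% higher, with medians of -0.50 and -1.07. Among genes of at least 100 kb, 98.0% were lower than in cortex and 92.9% lower than in olfactory bulb. Relative to that shift, with each library centred on its median over genes, 7 of the 9 genes were lower in cerebellum than in cortex and 2 were higher, Slit3 by 0.35 and Unc5c by 0.46 (adjusted p = 2.0e-06 and 4.1e-07), against 38.7% of all genes lower and 48.5% higher in that fit. The split was the same against the olfactory bulb, with Slit3 higher by 0.23 and Unc5c by 0.53, where 38.7% of all genes were lower and 47.2% higher. Thus the direction for these 2 genes depended on whether the shift was kept in the levels, and that of the other 7 did not. Of the 5 genes with neighbouring 1 Mb bins outside the gene, 3 exceeded these in the cerebellum, Slit3 with 0.163 against 0.106, Unc5c with 0.160 against 0.0988 and Robo1 with 0.0929 against 0.0455, while Slit1 and Dcc differed from theirs by -0.0112 and -0.0035. Unc5c, Robo1 and Slit3 also exceeded their neighbours in cortex, by 0.0277, 0.0596 and 0.0150. In olfactory bulb they did so by 0.0257, 0.0769 and 0.00057, where Slit3 lay below its neighbours in 1 of 3 libraries. Dcc was at 0.0059 and -0.0111 in cortex and olfactory bulb and Slit1 at -0.0011 and -0.0183. None of these gaps was tested.

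In the olfactory bulb against the cortex, 1 of the 9 genes had more 5hmC and 6 had less. The gene that was higher was Robo2 (difference 0.25, adjusted p = 0.00082), in a comparison in which 1.07% of all genes were higher and 77.9% lower. Among genes of at least 100 kb, 2.77% were higher and 62.3% lower. The lower genes among the 9 were Slit2 (-0.45), Unc5c (-0.35), Unc5d (-0.20), Dcc (-0.20), Slit1 (-0.17) and Slit3 (-0.15, adjusted p = 0.049). Robo1 and Ntng1 differed by 0.02 each with overlapping libraries (adjusted p = 0.78 and 0.76). The median was -0.17 for the 9 genes and -0.27 for all genes, and with the libraries centred 6 genes were higher and 1 lower, against 37.3% and 30.8% of all genes, of which Robo2 was at 0.52, Ntng1 at 0.30, Robo1 at 0.29, Slit3 at 0.13, Slit1 at 0.10 and Unc5d at 0.07, with Slit2 at -0.18. Robo2 was higher and Slit2 lower with either scaling.

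Some of these calls rested on 1 library. Without cortex replicate 2, which was the highest cortex library, 4 of the 9 genes passed instead of 7, since Slit1, Slit3 and Dcc had adjusted p-values of 0.079, 0.064 and 0.056. Slit1 did not pass without olfactory bulb replicate 1 or 3 either (adjusted p = 0.063 and 0.069), and Slit3 passed in only 2 of the 9 runs that left out a library. Robo1 turned from 0.02 to -0.19 (adjusted p = 0.012) when its bins were weighted by the bases of the gene in each. In its own bin (chr16:72000001-73000000), the 5hmC level was 0.207 ± 0.0147 (SD, n = 3) in cortex and 0.184 ± 0.00397 (n = 3) in olfactory bulb, and in the bin that it shares with Robo2 it was 0.179 ± 0.0119 and 0.207 ± 0.00406. In the other bin of Robo2 the levels were 0.215 ± 0.0124 (n = 3) and 0.244 ± 0.00463 (n = 3), so both bins of Robo2 were higher in the olfactory bulb.

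For 5mC, the genes went mostly the other way. In the cerebellum, 8 of the 9 genes had more 5mC than in the cortex and the remaining one, Unc5c, did not pass the test. Dcc reached the highest level, with 0.829 and 0.809 in cerebellum, 0.734 and 0.731 in olfactory bulb and 0.698, 0.695 and 0.671 in cortex, a difference between cerebellum and cortex of 1.04 (SE 0.11, adjusted p = 3.1e-11). The level of Dcc in the cerebellum was above that of 99.6% of the genes of at least 100 kb. Robo2 (0.91), Unc5d (0.89), Ntng1 (0.84), Robo1 (0.75) and Slit2 (0.58) followed, then Slit3 (0.34) and Slit1 (0.31). Over all genes, 55.1% of 21718 were higher and 4.26% lower, where the median difference was 0.29, against 0.75 for the 9 genes and 0.47 for the genes of at least 100 kb. Of the latter, 74.7% were higher and 3.1% lower. With centred libraries, 6 of the 9 were higher and 1 lower, against 15.3% and 26.5% of all genes, and Slit1 and Slit3 had values of -0.0290 and -0.0035. Slit1 did not pass without cerebellum replicate 1 or 2 (adjusted p = 0.13 and 0.051), nor Slit3 without replicate 1 (adjusted p = 0.13).

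Unc5c had 5mC levels of 0.637, 0.631 and 0.612 in cortex, 0.732 and 0.736 in olfactory bulb and 0.655 and 0.633 in cerebellum. The libraries of cortex and cerebellum overlapped (difference 0.11, SE 0.11, adjusted p = 0.42), and both olfactory bulb libraries lay above all others. Against the median shift of all genes the cerebellum lay below the cortex for Unc5c, by -0.23 with centred libraries (adjusted p = 0.016). In its 2 other comparisons Unc5c differed by 0.72 between olfactory bulb and cortex and by -0.61 between cerebellum and olfactory bulb (adjusted p = 4.5e-06 and 0.00011).

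Between olfactory bulb and cortex, 6 genes had more 5mC and none of the 9 less, also at an unadjusted p under 0.05 in limma, against 26.4% and 0.866% of all genes. Among genes of at least 100 kb, 30.9% had more and 2.77% less. Unc5c (0.72) and Unc5d (0.54) stood first and kept their calls under all 17 alternatives, with adjusted p of at most 0.0017 and 0.024. Slit2 (0.34), Slit3 (0.32), Dcc (0.31) and Robo1 (0.29) had adjusted p-values from 0.021 to 0.045. None of these 4 passed without olfactory bulb replicate 1 or replicate 2, Slit3, Robo1 and Dcc did not pass without cortex replicate 1, Dcc not without cortex replicate 3 either, and Robo1 not without any 1 of the 7 libraries (adjusted p from 0.056 to 0.31). Robo2 was the gene with the opposite sign, with 0.641 and 0.629 in olfactory bulb against 0.667, 0.671 and 0.659 in cortex. These libraries did not overlap, but the difference of -0.19 (SE 0.11) did not pass (adjusted p = 0.18). With centred libraries it was -0.40 (adjusted p = 0.0058), and over the bins wholly inside the gene -0.33 (adjusted p = 0.0034). With centring, 2 genes were higher and 1 lower, against 3.56% and 4.73% of all genes.

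Between cerebellum and olfactory bulb, 5 genes had more 5mC and 1 had less, against 18% and 7.69% of all genes, with a median of 0.35 for the 9 genes and 0.08 for all genes. Among genes of at least 100 kb, 38.4% had more and 6.11% less, with a median of 0.24. The numbers of the 9 genes were the same with centred libraries, against 13.7% and 21.9% of all genes. Robo2 had the largest difference, 0.799 and 0.780 in cerebellum against 0.641 and 0.629 in olfactory bulb (1.11, SE 0.12, adjusted p = 8.3e-11). Ntng1 and Dcc (0.73 each), Robo1 (0.46) and Unc5d (0.35) were also higher and Unc5c was lower. Robo1 did not pass without olfactory bulb replicate 2 or cerebellum replicate 1, and Unc5d did not pass without any 1 of the 4 libraries of these tissues or without cortex replicate 1 (adjusted p from 0.055 to 0.29). The 3 Slit genes did not pass, with 0.16, 0.24 and 0.02 for Slit1, Slit2 and Slit3 (SE 0.12, adjusted p = 0.37, 0.15 and 0.93).

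Along the genes, the bins of 100 kb gave a finer view. Of 58 bins, 51 were higher and 1 lower in cerebellum than in cortex, 33 higher and 4 lower in olfactory bulb than in cortex, and 40 higher and 5 lower in cerebellum than in olfactory bulb. Over all 25664 bins the shares were 71.9% and 4.44%, 37.6% and 2.18%, and 35.3% and 7.69%. With centred libraries 37 bins were higher and 6 lower, 12 and 8, and 32 and 8, where the shares over all bins were 25.7% and 24.3%, 8.81% and 9.9%, and 22.1% and 21.3%. The single bin of lower 5mC in cerebellum than in cortex was in Unc5c, the 4 bins of lower 5mC in olfactory bulb than in cortex were all in Robo2, and of the 5 bins lower in cerebellum than in olfactory bulb 4 were in Unc5c and 1 in Slit3. Without olfactory bulb replicate 1 or 2, the 37 bins that passed between olfactory bulb and cortex were 16 or 17.

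In Robo2, the 4 bins with less 5mC in the olfactory bulb than in the cortex lay inside the gene, between a start bin that was higher and an end bin that did not pass. Most of the start bin and most of the end bin lie outside the GENCODE span. These calls rested on few libraries, since 1 of the 4 passed without olfactory bulb replicate 1, 2 without cortex replicate 1 or 2, and 0 without olfactory bulb replicate 2, where 2 bins of Robo2 were lower at an unadjusted p under 0.05 in limma. In the bin that contains the gene start (chr16:74400001-74500000), it was 0.676 ± 0.0122 (SD, n = 2) in olfactory bulb, above 0.613 ± 0.00792 (n = 3) in cortex (adjusted p = 0.0045). In the next bin into the gene (chr16:74300001-74400000) it was 0.588 ± 0.0332 (n = 2) against 0.657 ± 0.0137 (n = 3), and 0.794 in cerebellum. This bin had the largest difference between 2 tissues in any of the 9 genes, 0.206 between cerebellum and olfactory bulb (1.43 on the log2 ratio scale, SE 0.13, adjusted p = 1.1e-24), and contains the Robo2 intron sequence given above. The 3 bins that passed besides it were at 0.603, 0.629 and 0.658 in olfactory bulb and at 0.654, 0.676 and 0.716 in cortex. The bin of Robo2 with the lowest mean over the 3 tissues (chr16:74000001-74100000) had 0.588, 0.629 and 0.757 in olfactory bulb, cortex and cerebellum, and that with the highest (chr16:73800001-73900000), at the end of the gene, had 0.704, 0.714 and 0.805. RefSeq lists further Robo2 starts 681 and 1035 kb upstream of the GENCODE start used here, so the upstream flank of Robo2 lies inside a longer RefSeq span.

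In Unc5c, the 5mC level of the cerebellum fell below that of the olfactory bulb over 4 of 5 bins. The bin of the gene start (chr3:141400001-141500000), where the Unc5c upstream sequence lies, had 0.595 ± 0.0137 (SD, n = 3) in cortex, 0.699 ± 0.00985 (n = 2) in olfactory bulb and 0.637 ± 0.0167 (n = 2) in cerebellum. The next bin (chr3:141500001-141600000) had the lowest mean over the 3 tissues and was the one that passed as lower in cerebellum than in cortex, with 0.570 in cerebellum, 0.616 in cortex and 0.704 in olfactory bulb (adjusted p = 0.024 against cortex). It did not pass without cortex replicate 1 or 2 or without cerebellum replicate 2, also at an unadjusted p under 0.05 in limma. The largest difference was in the bin after it (chr3:141600001-141700000), which contains the Unc5c intron sequence, with 0.745 in olfactory bulb and 0.601 in cerebellum (-0.144, or -0.95 on the log2 ratio scale, SE 0.13, adjusted p = 1.1e-11). In the last bin of the gene (chr3:141800001-141900000) the 2 tissues were nearly level at 0.743 and 0.737. The step at the start of the gene was sharp in the cerebellum, from 0.820 in the flank bin next to it to 0.637, and smaller in the olfactory bulb, from 0.780 to 0.699.

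**Figure D2:**
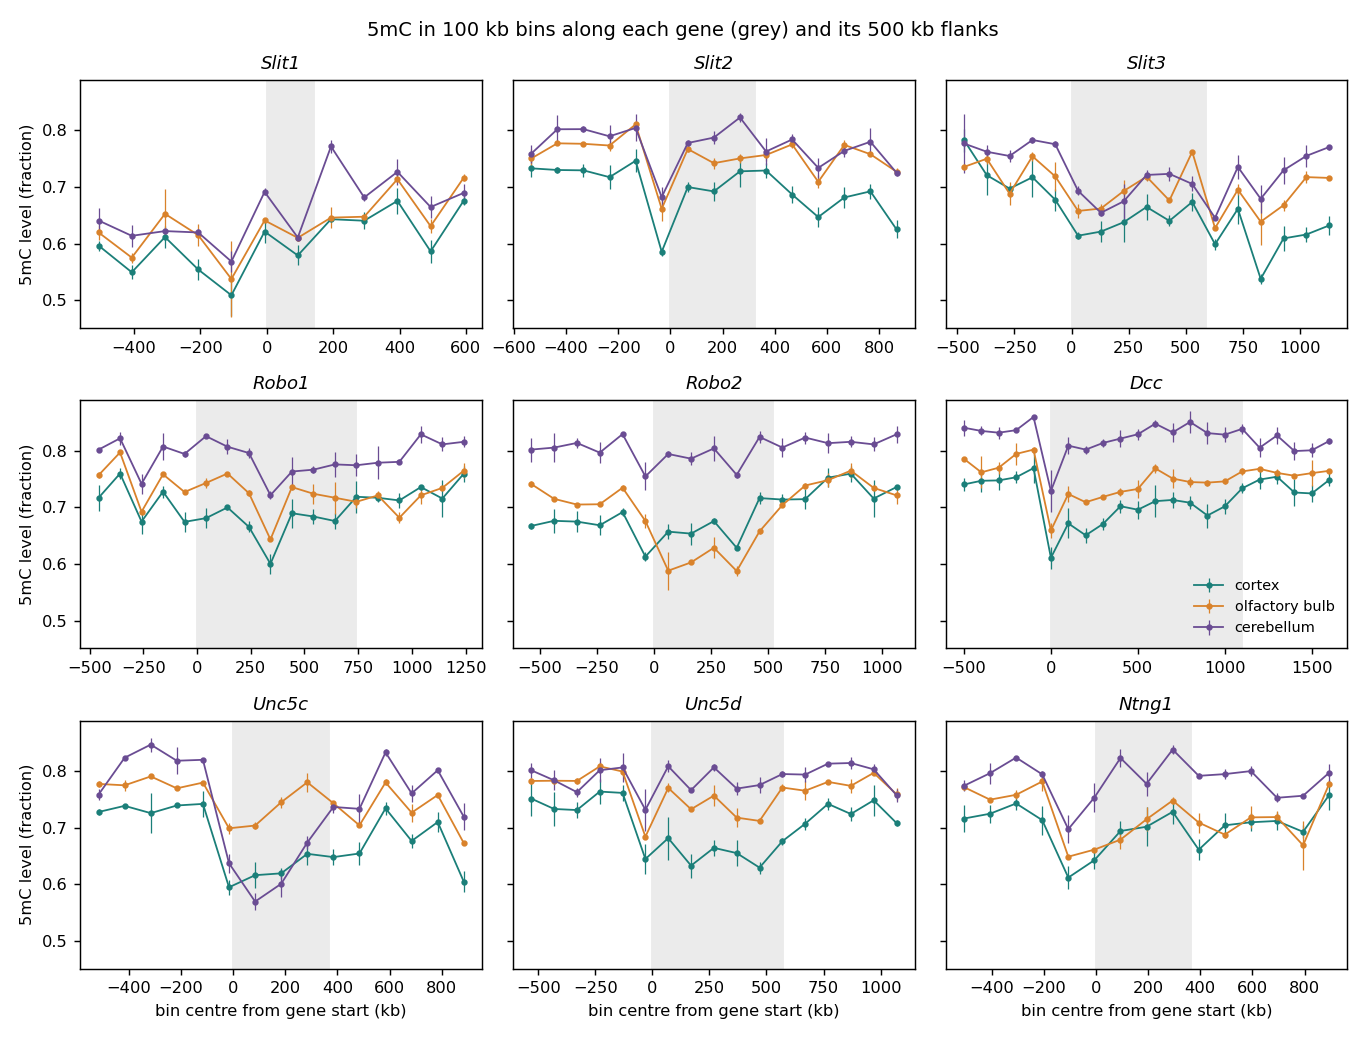
Level of 5mC (fraction, y axis from about 0.45) in each 100 kb bin along the 9 genes and their flanks, against the distance in kb of the bin's centre from the gene start in the direction of transcription, with lines for the mean of each tissue, bars for the SD and grey for the gene. Of the bins in the 9 genes, those that passed as lower in the olfactory bulb than in the cortex are the 4 inside Robo2, of which 0 to 4 passed with a library left out, and the cerebellum dips to 0.570 inside Unc5c.

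Of the remaining genes, Dcc, Robo1, Unc5d, Slit2 and Ntng1 changed in every bin between cerebellum and cortex, and the Slit genes Slit1 and Slit3 did not. All 12 bins of Dcc were higher in cerebellum than in cortex and than in olfactory bulb, with differences from cortex of 0.105 to 0.151. All 8 bins of Robo1, 7 of Robo2, 7 of Unc5d, 5 of Slit2 and 5 of Ntng1 were likewise higher in cerebellum than in cortex. Of Slit3, 4 of 7 bins passed, and its bin with the largest difference was one between olfactory bulb and cortex, 0.762 against 0.673 (chr11:35600001-35700000, adjusted p = 3.4e-06). Of Slit1, the bin of the gene start (chr19:41700001-41800000) passed, at 0.691 in cerebellum against 0.621 in cortex, and the other did not. In Ntng1 the largest difference was at chr3:110000001-110100000, with 0.823 in cerebellum and 0.679 in olfactory bulb (adjusted p = 3.8e-16).

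The other genes had their largest differences between cerebellum and cortex. In Dcc it was 0.802 against 0.651 in chr18:72100001-72200000 (adjusted p = 8.8e-19), in Robo1 0.825 against 0.681 in the start bin (adjusted p = 1.2e-19), in Unc5d 0.775 against 0.630 in chr8:28700001-28800000 (adjusted p = 5.5e-16), and in Slit2 0.682 against 0.586 in the start bin (adjusted p = 1.25e-06). Averaged over the 3 tissues, 5mC along a gene went from 0.666 in the start bin of Dcc to 0.778 in its last bin, the widest level range being that of Slit2, from 0.643 in its start bin to 0.767. It went from 0.655 to 0.755 in Robo1, 0.686 to 0.771 in Ntng1, 0.687 to 0.753 in Unc5d and 0.624 to 0.714 in Slit3. Thus by this mean the lowest bin was the start bin in Dcc, Slit2, Ntng1 and Unc5d and another one in the other 5 genes, with Slit1 at 0.600 in its end bin and 0.651 in its start bin.

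The bin with the gene start had on average less 5mC than the other bins of the gene in 7 of 9 genes in cortex and in 6 in each of the other tissues, by a median of -0.0395, -0.0440 and -0.0406. The share of other genes with such a start bin was not computed, so these counts do not set the 9 apart. The dip was deepest in Slit2, where the start bin (chr5:47900001-48000000) was lower by -0.126 ± 0.0199 (SD, n = 3) in cortex, -0.0924 ± 0.0262 (n = 2) in olfactory bulb and -0.105 ± 0.0297 (n = 2) in cerebellum, and in Dcc, where it was lower by -0.0839 ± 0.00615 (n = 3), -0.0797 ± 0.0127 (n = 2) and -0.0986 ± 0.0242 (n = 2). Slit1 had the opposite order in every library, with 0.0421 ± 0.00976 (n = 3) in cortex. In Robo1 the bin with the lowest mean over tissues was not that of the GENCODE start but chr16:72600001-72700000, at 0.600, 0.643 and 0.721 in cortex, olfactory bulb and cerebellum, and a start that RefSeq gives for Robo1, 355 kb into the span used here, lies in that bin. Each start bin also holds sequence upstream of the gene start. By position this is most of the bin in Slit1, Slit2, Robo2, Unc5c, Unc5d and Ntng1. The differences along a gene were not tested.

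A gene was next compared with its own flanks in the same library, which removes a shift of a whole library. In cortex and in olfactory bulb, 9 of 9 genes had less 5mC than their flanks, and 8 of 9 in cerebellum, where Ntng1 was the exception. Slit1 is counted by its mean only, since it lay below its flanks in 2 of 3 libraries of cortex and 1 of 2 of olfactory bulb. Medians over the 9 were -0.0401, -0.0256 and -0.0149, against -0.0150, -0.0123 and -0.00417 over the 2488 genes of at least 100 kb, of which 61.0%, 59.2% and 53.5% lay below their flanks. The flanks of Robo1 and Robo2 share 3 bins.

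In the cerebellum, the gap to the flanks was wider than in the cortex at Unc5c and Slit3, and it was narrower or turned at Unc5d, Dcc and Ntng1. In Unc5c it was -0.0781, -0.0788 and -0.0792 in cortex, -0.0210 and -0.0171 in olfactory bulb and -0.145 and -0.150 in cerebellum. The 3 tissues were widely apart, and the cerebellum was lower than the cortex by -0.0688 (SE 0.0093, adjusted p = 0.0012) and than the olfactory bulb by -0.129 (SE 0.010, adjusted p = 6.45e-05). Both of these calls held under all 17 alternatives. Of the 10 markers of granule and Purkinje neurons, 6 were lower and 1 higher relative to their flanks in cerebellum than in cortex, with the same numbers against olfactory bulb, and their part in the value of Unc5c was not tested. In Unc5d the gap closed from -0.0888, -0.0761 and -0.0811 in cortex to -0.0481 and -0.0482 in olfactory bulb and -0.0142 and -0.0155 in cerebellum, a difference of 0.0671 (SE 0.0095, adjusted p = 0.0016) between cerebellum and cortex, which also held under all 17. For Dcc it closed from -0.0574, -0.0573 and -0.0591 in cortex to -0.0338 and -0.0461 in olfactory bulb and -0.00235 and -0.00938 in cerebellum (0.0521, adjusted p = 0.0056, against cortex). Ntng1 went from -0.0229, -0.0187 and -0.0272 in cortex to 0.0197 and 0.0163 in cerebellum (0.0409, adjusted p = 0.014), and thus from below its flanks to above them.

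Slit3 moved with Unc5c, from -0.0351, -0.0307 and -0.0223 in cortex to -0.0687 and -0.0589 in cerebellum (-0.0344, adjusted p = 0.038). Thus 3 genes were higher and 2 lower relative to their flanks in cerebellum than in cortex, against 11.7% and 11.3% of 21711 genes. Among genes of at least 100 kb, as all 9 are, the shares were larger, 24.7% and 15.5%. Without cerebellum replicate 1, Slit3, Dcc and Ntng1 did not pass (adjusted p = 0.23, 0.065 and 0.11), and without replicate 2, Slit3 and Ntng1 did not (adjusted p = 0.13 and 0.095). Slit3 also did not pass without any 1 of the cortex libraries (adjusted p from 0.064 to 0.076).

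Robo2 had the other tissue-specific gap. It was -0.0922 and -0.0992 in olfactory bulb, against -0.0424, -0.0406 and -0.0372 in cortex and -0.0232 and -0.0258 in cerebellum. Since its upstream flank lies inside a longer RefSeq span of Robo2, this gap is in part one within that longer span. The olfactory bulb was lower than the cortex by -0.0556 (SE 0.0093, adjusted p = 0.011), and the cerebellum was higher than the olfactory bulb by 0.0712 (SE 0.010, adjusted p = 0.0017). The latter held under all 17 alternatives. In olfactory bulb against cortex, 1 gene was higher (Unc5c, 0.0597, adjusted p = 0.0086) and 1 lower (Robo2), against 3.27% and 2.57% of all genes. Among genes of at least 100 kb these shares were 7.72% and 7.56%. The markers of olfactory bulb neurons gave 5 of 10 lower and 0 higher in olfactory bulb against cortex, but also 4 lower and 1 higher in cerebellum against cortex. Their part in the value of Robo2 was not tested. Neither passed without olfactory bulb replicate 1 (adjusted p = 0.052 for Unc5c and 0.059 for Robo2) or replicate 2 (adjusted p = 0.064 and 0.075), which leaves 1 library in that tissue.

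In cerebellum against olfactory bulb, 3 genes were higher relative to their flanks, Robo2, Ntng1 (0.0436, adjusted p = 0.016) and Dcc (0.0341, adjusted p = 0.048), and 2 were lower, Unc5c and Slit3 (-0.0409, adjusted p = 0.030), against 9.95% and 10.9% of all genes. Among genes of at least 100 kb these shares were 21.1% and 14.5%. Unc5d (0.0333, adjusted p = 0.051) lay just outside the threshold. Without any 1 of the 4 libraries of these tissues only Robo2 and Unc5c passed, and Dcc also did not pass without cortex replicate 1 or 2 (adjusted p = 0.075 and 0.054). The gaps of Slit1, Slit2 and Robo1 did not pass in any comparison, with differences from -0.0156 to 0.0268.

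**Figure D3:**
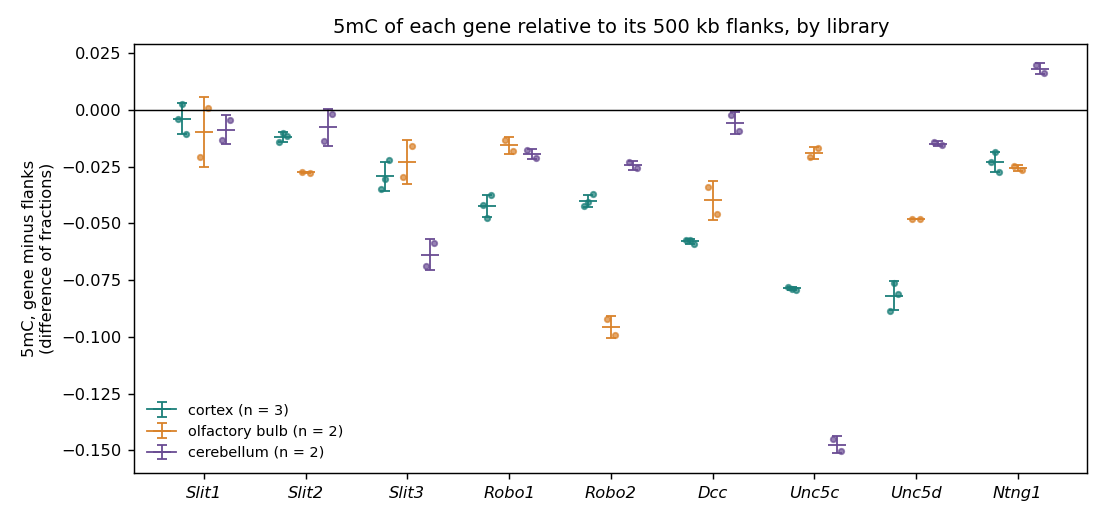
Mean 5mC of each gene minus that of its flanks (difference of fractions, y axis) in each oxBS-seq library, for 9 genes on the x axis, with points for libraries, bars for the mean ± SD and a line at 0. Unc5c is farthest below its flanks in the cerebellum (-0.145 and -0.150), Robo2 in the olfactory bulb (-0.0922 and -0.0992), and Ntng1 lies above its flanks only in the cerebellum.

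Where both marks were averaged over the same 1 Mb windows, their sum had a smaller range over tissues than either part in 8 of 9 genes, all but Unc5c, where it was 0.0404 against 0.0361 for 5hmC and 0.0756 for 5mC. The mean sum over all 2581 windows also varied little, at 0.840, 0.852 and 0.826 in cortex, olfactory bulb and cerebellum. Other genes with such a range were not counted, so it is not particular to these 9. For Robo2 in cortex, olfactory bulb and cerebellum the sum was 0.890 ± 0.0149, 0.919 ± 0.00544 and 0.884 ± 0.0134, where the error combines the SDs of both assays. Of this sum, 5hmC made up 22.2%, 24.6% and 9.51%. For Unc5c the sum was 0.870 ± 0.0204, 0.910 ± 0.00645 and 0.886 ± 0.0154, and the share of 5hmC was 22.6%, 17.7% and 18.1%. For Slit3 the share was 25.0%, 22.2% and 18.9%, and for Dcc 19.7%, 17.2% and 8.17%. Unc5d had the lowest share, 7.65% in cerebellum. From the mean levels over all 2581 windows, the share was 19.4%, 17.0% and 11.5% in the same order of tissues. Hence in cerebellum Slit3, Unc5c and Slit1 (14.3%) lay above the share over all windows and the other 6 genes below it. The 2 assays used separate libraries, so no test was made on the sum.

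**Figure D4:**
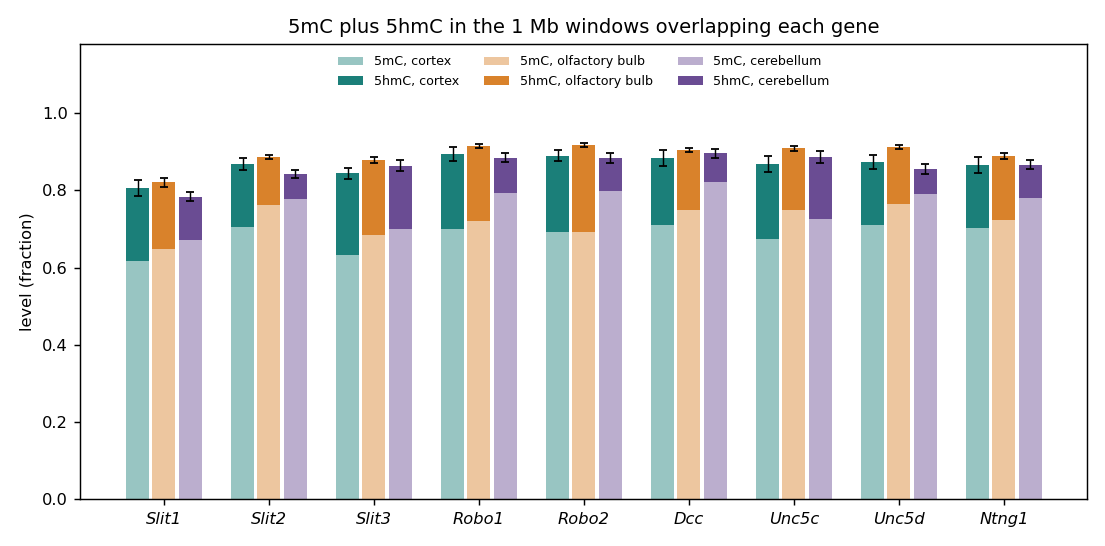
Stacked levels (fraction, y axis from 0) of 5mC (pale) and 5hmC (dark) in the 1 Mb windows that overlap each of 9 genes, by tissue, with error bars for the combined SD of the sum. The tops of the bars lie between 0.784 and 0.919, while the dark part is small in cerebellum for all genes but Slit3, Unc5c and, in part, Slit1.

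The order of the genes also differed between tissues. By 5hmC in cortex the order was Slit3, Robo2, Unc5c, Robo1, Slit1, Dcc, Unc5d, Slit2 and Ntng1, and no neighbours in it were apart in all libraries. In olfactory bulb Robo2 led and was apart from Robo1, and Slit2 was last and apart from Unc5d. In cerebellum Slit3 and Unc5c led without being apart from each other, and both were apart from Slit1. By 5mC, Slit1 was lowest in cortex and olfactory bulb, at 0.600 and 0.626, and Unc5c in cerebellum, at 0.644 and not apart from Slit1 at 0.651. Dcc was highest in cerebellum and apart from Ntng1. As a description, across the 58 bins 5mC was lower where CpGs were more numerous, with Pearson's r of -0.37, -0.33 and -0.50 in cortex, olfactory bulb and cerebellum, against -0.64, -0.64 and -0.62 across all bins, where bins share libraries and neighbours share sequence. Slit1 and Slit3 had the most CpGs per bin, with medians of 1377 and 1164, and Dcc the fewest, 556, against 751 over all bins.

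The gene whose 6 tissue means were nearest to those of a member, among 2473 genes of at least 100 kb that share no 1 Mb bin with one, was Tenm3 for Robo2 and Ntrk3 for Unc5c. Tenm3 had 5hmC levels of 0.202, 0.232 and 0.0709 and 5mC levels of 0.668, 0.653 and 0.776 in cortex, olfactory bulb and cerebellum, at a distance of 0.0276 from Robo2. Ntrk3 had 0.201, 0.172 and 0.161 for 5hmC and 0.616, 0.710 and 0.664 for 5mC, at 0.0354 from Unc5c, the farthest of the nearest genes. For Slit1, Slit2, Slit3, Robo1, Dcc, Unc5d and Ntng1 the nearest were Exoc6, Plch1, Fto, Nxpe4, Cntn5, L3mbtl3 and Ikzf2, at 0.0138 to 0.0241. Median distances of all genes were from 0.119 to 0.149.

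Of 32 other genes of the Slit and netrin pathways, 32 had less 5hmC in cerebellum than in cortex, with a median of -0.64 (all genes -0.76), and 28 had less than in olfactory bulb, with a median of -0.52 (all genes -0.50). Of all genes, 98.4% and 88% were lower in these comparisons. Robo3 and Robo4 overlap the same bins and are 1 measurement counted for both genes, here and in the counts that follow. Flrt2, which encodes a ligand of Unc5 receptors, had the largest differences, -1.92 and -1.68, followed by Dock1 (-1.18 against cortex), an exchange factor for Rac, and Rgmb (-0.99 against olfactory bulb), a repulsive guidance molecule. In olfactory bulb against cortex, 18 were lower and none higher, against 77.9% and 1.07% of all genes. Lrrc4c (-0.43), the partner of netrin-G1, and Ntn3 (-0.40), a netrin, were at the lower end. Hence Robo2 was the only gene of the 9 and of these 32 that passed as higher in olfactory bulb without centring.

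In 5mC, 17 of the 32 were higher and 3 lower in cerebellum than in cortex, 11 and 2 in olfactory bulb than in cortex, and 10 and 3 in cerebellum than in olfactory bulb, with medians of 0.28, 0.18 and 0.11 against 0.29, 0.20 and 0.08 for all genes. The shares over all genes were 55.1% and 4.26%, 26.4% and 0.866%, and 18% and 7.69%. Ptk2, a focal adhesion kinase, rose by 1.38 and Flrt2 by 1.24 in cerebellum against cortex, while Ablim1, an actin-binding protein, was at -0.52 and Unc5b, another Unc5 receptor, at -0.28. In olfactory bulb against cortex, Flrt2 (0.84) and Lrrc4c (0.62) were highest and Fyn (-0.60), a Src family kinase, and Ntn4 (-0.35) lowest. In cerebellum against olfactory bulb Ptk2 (1.11) and Dscam (0.97), which encodes a further netrin receptor, were highest and Ablim1 (-0.998) and Unc5b (-0.44) lowest.

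Relative to their flanks, 8 of the 32 were higher and 10 lower in cerebellum than in cortex, 3 and 3 in olfactory bulb than in cortex, and 7 and 9 in cerebellum than in olfactory bulb. The shares over all genes were 11.7% and 11.3%, 3.27% and 2.57%, and 9.95% and 10.9%. In cerebellum against cortex, Ptk2 (0.159) and Flrt2 (0.133) had the largest rises and Ablim1 (-0.171) and Ntn4 (-0.119) the largest falls. In olfactory bulb against cortex these were Flrt2 (0.0957) and Rgma (0.0547), and Fyn (-0.111) and Ntn4 (-0.0663). In cerebellum against olfactory bulb they were Ptk2 (0.132) and Dscam (0.0983), and Ablim1 (-0.199) and Srgap2 (-0.0799), whose product is a GTPase-activating protein that binds Robo receptors.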

How the data were processed

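Reads of TAB-seq and oxBS-seq libraries were mapped uniquely to mm10 with Bismark and CpG sites were called with a binomial model by the authors, who deposited 1 fraction per bin and library, between 0 and 1. How sites were combined in a bin is not given in the sources used here, and no read counts accompany the fractions, so that depth is unknown and precision was judged from the SD between libraries. Bins listed at 0 or 1 in any library were left out, which kept 2581 of 2641 bins of 1 Mb and 25664 of 26327 bins of 100 kb. Bin positions were compared with chromosome lengths in GRCm38, in which the last bins end. The RNA-seq libraries were not analysed here.

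Samples were grouped by the tissue and assay in their labels. The level of a gene is the unweighted mean of the bins that overlap it (GENCODE release M 21), and its flanks are the bins within 500 kb on either side (at least 5 required). Tissues were compared with limma 3.58.1 in R 4.3.3, in 1 fit per assay over 3 tissues, on log2(level/(1 − level)) or, for a gene minus its flanks, on fractions, with Benjamini-Hochberg adjustment over all genes or bins and a threshold of 0.05. The fits were tested on simulated data with 200 genes or bins changed in cerebellum against cortex. Of changes of 0.2 on the log2 ratio scale, they found 18% in 5hmC and 0% in 5mC, for genes and for bins. Of changes of 0.5 they found 100% in 5hmC, 80.5% in 5mC of genes and 70.5% in 5mC of bins. Relative to flanks, 99% of changes of 0.1 in the fraction were found. No smaller change was simulated there, so the share found at the size of most differences reported for the 9 genes is unknown. Python 3.11.15, numpy 2.4.6, pandas 2.3.3 and matplotlib 3.10.9 were used otherwise. In 5hmC, libraries of olfactory bulb and cortex with the same replicate number in the labels deviated together from their tissue means (r from 0.13 to 0.34 over 3 pairs, by the data and not by a stated design), and the fit with the replicate block was run as an alternative. Sequences and CpG numbers came from GRCm38, and promoter windows from RefSeq, which matched 6 of the 9 genes.

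The genes, the pathway and marker lists and the tests were chosen with earlier results of these data known. Named were all 9 genes, for each the bins with the lowest and highest 5mC and the largest difference past the threshold, the pathway genes with the 2 largest rises and the 2 largest falls per comparison past the threshold, and the gene nearest to each member by Euclidean distance over tissue means. Alternatives were the fraction or log2 scale, centring, levels of all bins held within 0.001 and 0.999, the robust and the trend option of limma, genes of at least 100 kb, autosomes, weights, bins wholly inside a gene, other flanks, the replicate block and leaving out each library.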

Additional observations from a re-analysis of the deposited data

Results flagged for a closer look

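The difference of a gene from its flanks in 5mC differed between tissues, by the limma test of that difference, in 12 cases, and each of these was 1 of 27 tests on the 9 genes. In cerebellum against cortex the values were 0.0671 for Unc5d, 0.0521 for Dcc, 0.0409 for Ntng1, -0.0344 for Slit3 and -0.0688 for Unc5c. In cerebellum against olfactory bulb they were 0.0712 for Robo2, 0.0436 for Ntng1, 0.0341 for Dcc, -0.0409 for Slit3 and -0.129 for Unc5c. In olfactory bulb against cortex they were 0.0597 for Unc5c and -0.0556 for Robo2. The libraries of the 2 tissues did not overlap in any of the 12, but each tissue other than cortex had 2 libraries.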

How the results depend on the processing

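Among the numbers of the 9 genes that passed, those for 5hmC in cerebellum against cortex (9) and against olfactory bulb (8) and those for 5mC in these comparisons (8 and 6) stayed within 1.5 times under all alternatives. For 5hmC in olfactory bulb against cortex, 7 genes passed and 4 to 7 with a library left out. For 5mC in that comparison the number was 6, but 3 with centred libraries, 3 with the replicate block by the numbers of the labels, and 2 to 5 with a library left out. Relative to the flanks, 2 passed in olfactory bulb against cortex, 1 with the replicate block by library names, 4 with bins wholly inside a gene, 4 among genes of at least 100 kb and 0 to 2 with a library left out. Where 0 passed in limma, without olfactory bulb replicate 1 or 2, 3 and 4 genes had an unadjusted p under 0.05. In cerebellum against cortex 5 passed, 3 with flanks of 250 kb and 2 to 5 with a library left out, and in cerebellum against olfactory bulb 5, 2 with the block by library names, 3 with flanks of 250 kb and 2 to 6 with a library left out. Of the bins, 37 passed in olfactory bulb against cortex, 20 with centred libraries and 16 to 35 with a library left out. The cause was not tested, except that fewer libraries enter when one is left out.

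Centring turned the sign of 5hmC in olfactory bulb against cortex for Slit1 (0.10), Slit3 (0.13), Dcc (0.0754) and Unc5d (0.0720), in cerebellum against cortex for Slit3 (0.35) and Unc5c (0.46) and against olfactory bulb for Slit3 (0.23) and Unc5c (0.53), since the median of all genes is set to 0. It turned that of 5mC in olfactory bulb against cortex for Slit1 (-0.0567) and Ntng1 (-0.10), in cerebellum against cortex for Slit1 (-0.0290), Slit3 (-0.0035) and Unc5c (-0.23) and against olfactory bulb for Slit3 (-0.11). Weights turned Robo1 in 5hmC (-0.19, olfactory bulb against cortex) and Slit3 in 5mC (-0.0029, cerebellum against olfactory bulb), and bins wholly inside a gene turned Unc5c (-0.0922, cerebellum against cortex) and Slit3 (-0.0439, cerebellum against olfactory bulb). A library left out turned values near 0: in 5hmC those of Robo1 (-0.0364 to 0.0852) and Ntng1 (-0.0156 to 0.0745) in olfactory bulb against cortex and of Unc5c (-0.0381 to 0.0308) in cerebellum against olfactory bulb, and in 5mC that of Slit3 (-0.0309 to 0.0722) in the latter. Relative to the flanks, Slit1 in cerebellum against olfactory bulb was -0.0162 with flanks of 250 kb, -0.00950 with 1 Mb, and -0.00979 to 0.0118 with a library left out, which also gave -0.0166 to 0.00497 for Slit1 and -0.000390 to 0.0133 for Slit3 in olfactory bulb against cortex and -0.00169 to 0.0100 for Slit2 in cerebellum against cortex.

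Samples of equal replicate number showed no common deviation from the tissue means in 5mC, with correlations of -0.09 to 0.07. Nor did they in 5hmC between cerebellum and the other tissues, at -0.23 to 0.07. In 5mC, olfactory bulb and cerebellum had 2 libraries each, whose deviations mirror each other, so these values cannot exclude pairing. With the replicate block by labels, the 5hmC numbers stayed at 7, 9 and 8, and it changed no call of a single gene in 5hmC. This includes olfactory bulb against cortex, where libraries of equal number deviated together for a reason that was not tested. For oxBS-seq the numbers of the labels and of the library names differ in olfactory bulb and cerebellum, so both were tried.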
